A study of Homo sapiens with 2 samples.

Results

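The genes described here encode the E-cadherin adhesion complex and the main tight junction membrane proteins of a luminal breast epithelium. They are 10 of the 18781 genes in the deposited table, taken by their symbols: CDH1, CTNNA1, CTNNB1, CTNND1, JUP, EPCAM, CLDN3, CLDN4, CLDN7 and OCLN. The rule itself uses no measured value, and each symbol matched 1 gene of the table. The data come from RNA immunoprecipitation (RIP), in which RNA that stays on antibody-coated beads is extracted and sequenced. Wild-type T47D cells, an established line of luminal breast cancer cells, were the source of both libraries. One was made from the precipitate of an anti-IMP1 antibody and the other from the precipitate of normal IgG, which serves as the background of the assay. IMP1 is an RNA-binding protein that acts in the transport, stability and translation of mRNAs. With 1 library per condition, no value has a replicate error, and a difference between the antibodies cannot be told apart from a difference between the libraries. No library of the lysate itself was analysed here, so that recovery on the beads and level in the lysate cannot be told apart.

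In an epithelium, E-cadherin molecules of neighbouring cells bind each other outside the cell. Inside the cell, beta-catenin or plakoglobin binds the tail of E-cadherin, alpha-catenin links this complex to actin, and p120-catenin holds E-cadherin at the membrane. Claudins and occludin form the tight junctions that seal the space between cells, and EpCAM is an adhesion molecule found along the lateral membrane of epithelial cells. Beta-catenin is also the transcriptional effector of Wnt signalling.

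Values are in FPKM, the number of fragments assigned to a gene scaled by transcript length and by library size. All values added up to 353885 FPKM with the IMP1 antibody and to 1298363 FPKM with IgG. The IMP1 library listed 1202 genes at 0 and the IgG library 7270. Read depth is unknown. A log2 ratio is that of FPKM + 0.1 with the IMP1 antibody to FPKM + 0.1 with IgG, which understates the difference of low genes. The median of this ratio was 0.40 for the whole table and -0.78 for the 6909 genes that reached 1 FPKM on both sides. All 10 junction mRNAs were above 0 in both libraries, and 9 of them reached 1 FPKM on both sides.

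The junction mRNAs did not move together between the precipitates. On the deposited scale, 2 of the 10 were at least 2-fold higher with the IMP1 antibody than with IgG, 4 were at least 2-fold lower and 4 differed by less than 2-fold. Both mRNAs on the higher side encode claudins, CLDN3 and CLDN4. The mRNAs on the lower side were CTNNA1, CTNND1, CLDN7 and OCLN. CDH1, CTNNB1, JUP and EPCAM lay within 2-fold. Of all 18781 genes, 39.9% were at least 2-fold higher and 29.9% at least 2-fold lower. Among the genes that reached 1 FPKM on both sides, where all of these mRNAs but CLDN4 belong, the shares were 11.5% and 44.0%. The median log2 ratio of the 10 mRNAs was -0.16, between the medians of both gene sets.

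**Figure D1:**
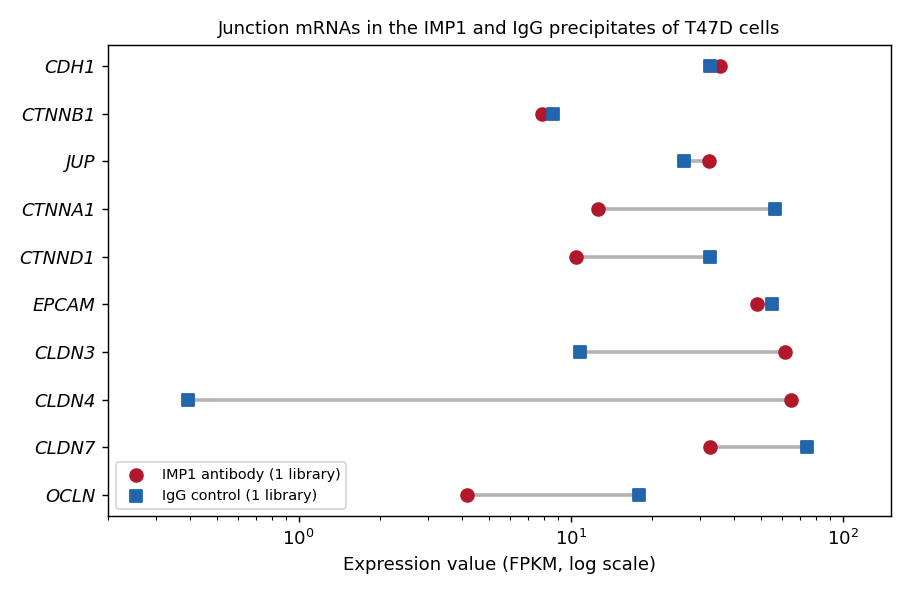
Expression value in FPKM on a log axis for each junction mRNA in the single IMP1 antibody library (circles) and the single IgG library (squares), with a grey line joining both values. The values of CDH1, CTNNB1, JUP and EPCAM nearly coincide, CLDN3 and CLDN4 are higher with the IMP1 antibody, and CTNNA1, CTNND1, CLDN7 and OCLN are higher with IgG, on the scale as deposited.

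CDH1 (ENSG00000039068), which encodes E-cadherin, lies on chromosome 16 from 68771128 to 68869451 in hg19, the build of all positions from the deposited table. On the deposited scale its mRNA was nearly level, at 35.5 FPKM with the IMP1 antibody and 32.5 FPKM with IgG, for a log2 ratio of 0.13. It ranked 615th among all genes with the IMP1 antibody and 1196th with IgG. Its ratio exceeded that of 73.0% of the genes that reached 1 FPKM on both sides. Of the 488 other genes within 1.5-fold of its IMP1 value, 55.3% had an IgG value at or below that of CDH1, so that CDH1 sat near the middle of genes at its level.

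The catenin mRNAs split into 2 pairs. CTNNB1 (ENSG00000168036; chromosome 3, 41236328 to 42003922), which encodes beta-catenin, had 7.85 FPKM with the IMP1 antibody and 8.62 FPKM with IgG, for a log2 ratio of -0.13. JUP (ENSG00000173801; chromosome 17, 39775689 to 39943183), which encodes plakoglobin, the close relative of beta-catenin that also works in desmosomes, had 32.2 FPKM and 26.2 FPKM, for a log2 ratio of 0.30. On the deposited scale, both of these tail-binding catenins had nearly the same value in either precipitate, and both lay close to CDH1 in their ratio.

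The catenins outside this pair were lower in the IMP1 library. CTNNA1 (ENSG00000044115; chromosome 5, 137946656 to 138270723), which encodes the alpha-catenin that connects the complex to actin, had 12.7 FPKM with the IMP1 antibody and 56.3 FPKM with IgG. Its log2 ratio of -2.15 was the lowest of the 10 mRNAs. CTNND1 (ENSG00000198561; chromosome 11, 57480072 to 57587018), which encodes p120-catenin, had 10.5 FPKM and 32.5 FPKM, for a log2 ratio of -1.63. Among the 1401 other genes within 1.5-fold of the IMP1 value of CTNNA1, 5.71% reached its IgG value, and of the 1629 such genes for CTNND1, 14.8% did.

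The mRNAs of the cadherin complex stood in different proportions in the IMP1 and IgG libraries. Each mRNA was set against CDH1 of the same library, a comparison that needs no scaling between the libraries. These values are of RNA and not of the protein complex. For every 100 FPKM of CDH1, the IMP1 library held 35.7 FPKM of CTNNA1 and the IgG library 174 FPKM. For CTNND1 the values were 29.5 and 100.1 FPKM. CTNNB1 and JUP differed less, with 22.1 and 26.6 FPKM of CTNNB1 and 90.7 and 80.7 FPKM of JUP for every 100 FPKM of CDH1. The mRNA of plakoglobin was 4.10 times that of beta-catenin with the IMP1 antibody and 3.04 times with IgG, per length of transcript.

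EPCAM (ENSG00000119888; chromosome 2, 47572297 to 47614740) had 48.4 FPKM with the IMP1 antibody and 55.1 FPKM with IgG, for a log2 ratio of -0.19. It was among the more abundant mRNAs in both libraries, at rank 446 with the IMP1 antibody and rank 617 with IgG. The ratio of EPCAM to CDH1 was 1.37 with the IMP1 antibody and 1.70 with IgG, so that both markers of an epithelial identity kept a similar proportion.

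The 3 claudin mRNAs differed in both directions and included the 2 highest ratios of the set. CLDN3 (ENSG00000165215; chromosome 7, 73183328 to 73184600) had 61.4 FPKM with the IMP1 antibody and 10.8 FPKM with IgG, for a log2 ratio of 2.49. CLDN4 (ENSG00000189143; chromosome 7, 73213872 to 73247014) had 64.7 FPKM and 0.393 FPKM, for a log2 ratio of 7.04. CLDN7 (ENSG00000181885; chromosome 17, 7143333 to 7167302) went the other way, with 32.4 FPKM and 74.3 FPKM, for a log2 ratio of -1.19.

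CLDN4 was the highest of the 10 mRNAs in the IMP1 library and the lowest in the IgG library, while CLDN7 was the highest with IgG. Within the IMP1 library, CLDN3 and CLDN4 were at similar levels, with 1.05 FPKM of CLDN4 for each FPKM of CLDN3. Within the IgG library the same ratio was 0.0363. For each FPKM of CLDN7 there were 1.89 FPKM of CLDN3 with the IMP1 antibody and 0.146 FPKM with IgG. The sum of the 3 claudins was 158 FPKM with the IMP1 antibody and 85.5 FPKM with IgG.

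The value of CLDN4 with IgG was near the lower end of what that library registered, since 13.7% of its genes above 0 had a value of 0.393 FPKM or less. The number of fragments behind it is unknown, and the size of the ratio depends on the pseudocount, with a log2 ratio of 5.56 at a pseudocount of 1. Of the 251 other genes within 1.5-fold of the IMP1 value of CLDN4, 9 had an IgG value as low, and all 9 were listed at 0. The median IgG value of these 251 genes was 53.8 FPKM. For CLDN3, 30 of 264 such genes had an IgG value of 10.8 FPKM or less, or 11.4%.

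The sequences upstream of the claudin genes are shown because CLDN3 and CLDN4 were both higher in the IMP1 library while CLDN7 was lower as deposited. They come from RefSeq windows of build GRCh38.p14, which held 7 of the 10 genes, and run 5′ to 3′ on the strand of the gene over the 250 bases before an annotated start. Capitals mark the GC box GGGCGG, to which factors of the SP family bind, and the E-box CAGGTG, to which the E-cadherin repressors of the SNAI and ZEB families bind, each searched on both strands. The windows are chr7:73770271-73770520 on the minus strand for CLDN3, chr7:73830746-73830995 on the plus strand for CLDN4, and chr17:7262479-7262728 on the minus strand for a start of CLDN7.
CLDN3: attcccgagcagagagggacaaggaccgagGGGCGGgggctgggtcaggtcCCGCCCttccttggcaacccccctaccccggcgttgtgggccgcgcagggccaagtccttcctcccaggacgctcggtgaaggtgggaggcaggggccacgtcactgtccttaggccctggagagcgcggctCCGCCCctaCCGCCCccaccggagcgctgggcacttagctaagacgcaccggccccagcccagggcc
CLDN4: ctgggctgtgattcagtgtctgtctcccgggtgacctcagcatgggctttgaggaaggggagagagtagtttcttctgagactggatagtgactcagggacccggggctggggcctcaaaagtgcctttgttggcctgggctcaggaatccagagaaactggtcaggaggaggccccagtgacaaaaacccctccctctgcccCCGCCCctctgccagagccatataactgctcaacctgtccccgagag
CLDN7: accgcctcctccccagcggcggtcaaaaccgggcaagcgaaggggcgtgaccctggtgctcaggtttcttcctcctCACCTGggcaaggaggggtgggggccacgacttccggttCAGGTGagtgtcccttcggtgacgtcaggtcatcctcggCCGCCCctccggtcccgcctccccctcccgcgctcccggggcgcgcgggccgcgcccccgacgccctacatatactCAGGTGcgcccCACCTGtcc

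The window of CLDN3 held 4 GC boxes and no E-box, that of CLDN4 held 1 GC box and no E-box, and that of CLDN7 held 1 GC box and 4 E-boxes. The window before a second annotated start of CLDN7, chr17:7263214-7263463, held neither. Of 35116 windows of the same length in the table, 42.6% held a GC box and 17.5% an E-box. Windows of other members, not printed here, varied as well. Every window of CTNNA1, which had the lowest log2 ratio at -2.15, held 0 E-boxes, and 1 of them held 9 GC boxes. A window of JUP, within 2-fold as deposited, held 2 E-boxes, and each window of OCLN held 1. A link between E-boxes and the direction of the ratio was not tested. The RIP values are of RNA and not of promoter activity, so these matches describe the sequences only.

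OCLN (ENSG00000197822; chromosome 5, 68773299 to 69006341), which encodes occludin, was the least abundant of the 10 mRNAs in the IMP1 library at 4.16 FPKM. With IgG its value was 17.9 FPKM, for a log2 ratio of -2.08 that placed it beside CTNNA1. For every 100 FPKM of CDH1 there were 11.7 FPKM of OCLN with the IMP1 antibody and 55.0 FPKM with IgG. Of the tight junction membrane mRNAs described here, CLDN3 and CLDN4 were thus on the higher side and CLDN7 and OCLN on the lower side.

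**Figure D2:**
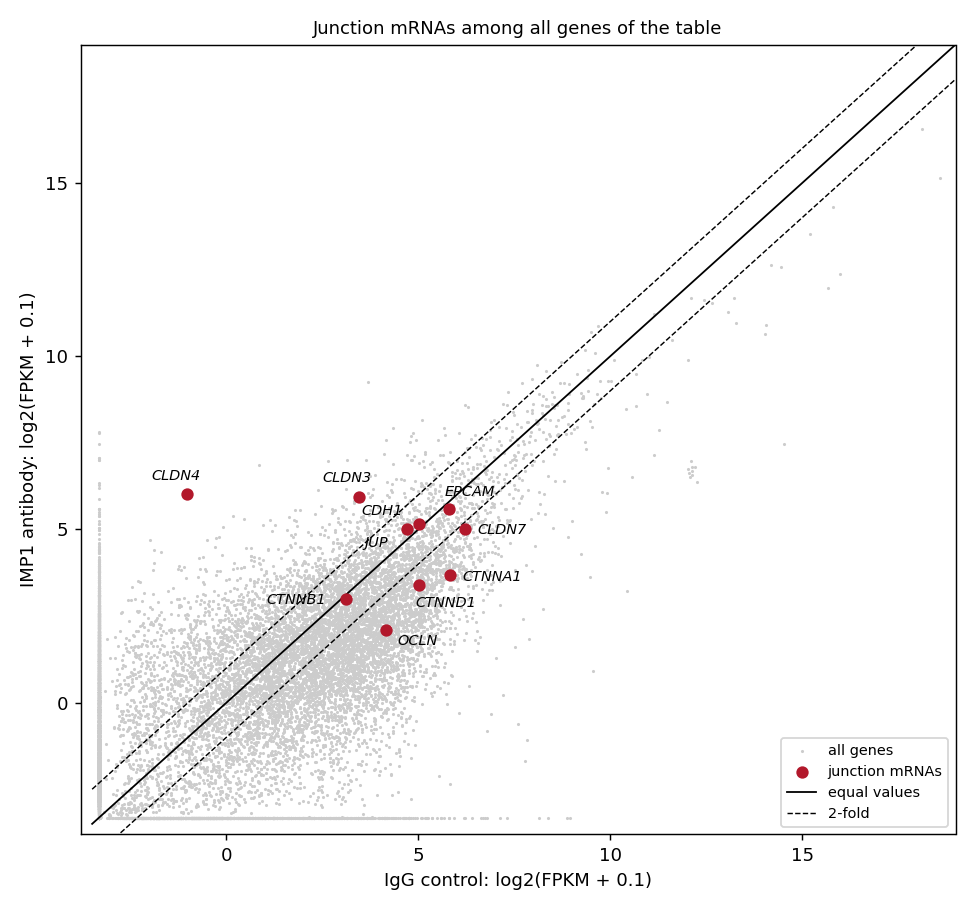
Level of every gene as log2(FPKM + 0.1) in the IgG library (horizontal axis) and the IMP1 library (vertical axis), with the junction mRNAs in red, the line of equal values and dashed lines at 2-fold. CDH1, JUP, EPCAM and CTNNB1 lie between the dashed lines, while CLDN4, at 64.7 FPKM against 0.393 FPKM, lies far above them at the thin edge of the cloud.

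These directions depend on how the libraries are scaled to each other. The median log2 ratio of all genes moved by more than 0.1 under each of 4 rescalings of the IMP1 values, which shifted them by 0.49 (to broadly expressed genes), 0.57 (to the sum without the 50 highest genes), 0.79 (to the median gene) and 1.88 (to the same sum over all genes) before the pseudocount was added. CLDN3 and CLDN4 were at least 2-fold higher with the IMP1 antibody under every one of them, with log2 ratios between the 2.49 as deposited and 4.36 for CLDN3 and between the 7.04 as deposited and 8.91 for CLDN4. CTNNA1 and OCLN stayed lower under each rescaling, but under the same sum over all genes by less than 2-fold, at -0.28 and -0.23. CLDN7 and CTNND1 turned to 0.68 and 0.24 under the same sum over all genes and stayed below 0 under the other 3. CTNNB1 and EPCAM, slightly lower as deposited, were above 0 under all 4. The near-equal values of CDH1, CTNNB1, JUP and EPCAM hold only for the deposited scale, since with the same sum over all genes all 4 were at least 2-fold higher, with log2 ratios from 1.69 for EPCAM to 2.17 for JUP. JUP also passed 2-fold with the median gene, at 1.09. Of the calls past 2-fold over all genes, 57.2% were higher as deposited, 69.9% after scaling to the median gene and 83.1% after scaling to the same sum. For the junction mRNAs, 2 of 6 such calls were higher as deposited, 3 of 5 with the median gene and 6 of 6 with the same sum.

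**Figure D3:**
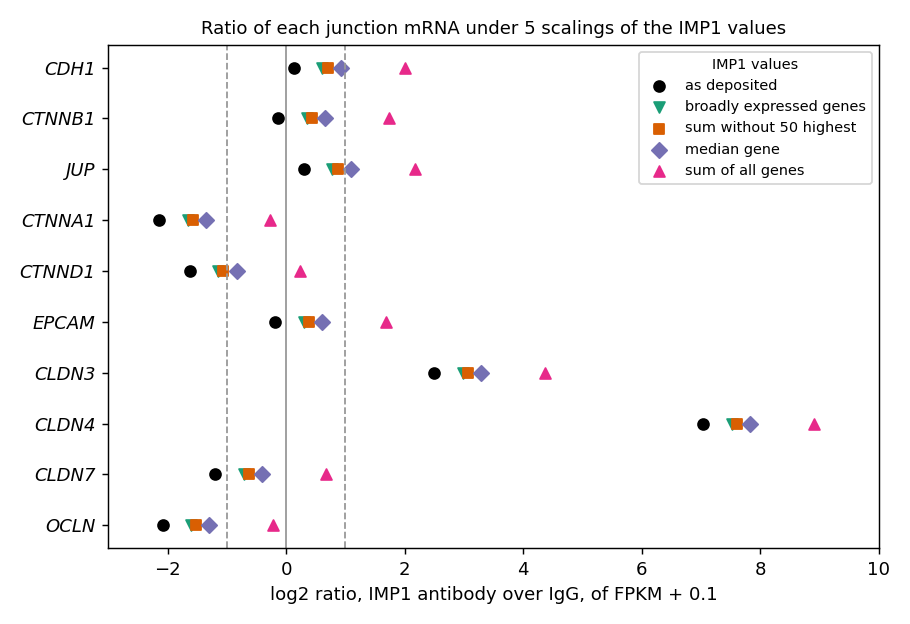
Log2 ratio of FPKM + 0.1, IMP1 antibody over IgG, of each junction mRNA as deposited (black) and after 4 rescalings of the IMP1 values (colours), with a solid line at 0 and dashed lines at 2-fold. The spacing between the mRNAs is nearly kept while the whole set moves to the right, so that CLDN3 and CLDN4 stay above 2-fold, CTNNA1 and OCLN stay below 0, and CLDN7 and CTNND1 cross 0 only with the same sum over all genes.

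CLDN3 and CLDN4 are neighbours on chromosome 7, with no other gene of the table in between. In the deposited table the locus of CLDN4 starts 29272 bases past the end of the locus of CLDN3, which is not the distance between their transcription starts. The genes on either side of the pair differed by less than 2-fold as deposited. ABHD11, next to CLDN3, had 8.19 FPKM with the IMP1 antibody and 9.17 FPKM with IgG, and WBSCR27, next to CLDN4, had 2.90 FPKM and 1.63 FPKM. CDH1 has the P-cadherin gene CDH3 as its neighbour on chromosome 16, which had 5.72 FPKM and 2.34 FPKM, for a log2 ratio of 1.26. MARVELD2, a gene for another tight junction membrane protein beside OCLN on chromosome 5, had 7.46 FPKM and 2.99 FPKM, for a log2 ratio of 1.29, the opposite direction to OCLN as deposited.

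The locus column gives a region that can hold several overlapping genes, so that the positions above are often wider than the gene. The locus of CLDN3 held that gene alone, with a width of 1273 bases, and so did that of CLDN4, with 33143 bases. The locus of CTNNB1 also held ULK4, and that of CTNNA1 held LRRTM2, at 0.0506 FPKM with the IMP1 antibody and 1.55 FPKM with IgG. The locus of CTNND1 held TMX2, at 58.0 and 49.4 FPKM, C11orf31, at 15.7 and 29.3 FPKM, and the read-through gene TMX2-CTNND1, at 0.352 FPKM and listed at 0 with IgG. The locus of JUP held EIF1, at 208 and 239 FPKM. In the locus of CLDN7, GABARAP had 76.3 and 46.9 FPKM, CTDNEP1 had 14.7 and 39.7 FPKM, and the transcript CTD-2545G14.7 had 0.00215 and 13.8 FPKM. OCLN shared its locus with GTF2H2C, at 4.65 and 13.7 FPKM, and GUSBP3. Whether strand was used in counting is not given in the sources used here, and fragments of overlapping genes may have been divided between them.

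The other genes of the junctions were described by 5 lists that leave out the 10 mRNAs above. Together these lists had 87 genes in the table, of which 35 were at least 2-fold higher with the IMP1 antibody and 20 at least 2-fold lower. Over all genes of the table, 39.9% were higher and 29.9% lower. Of the 35 higher genes, 24 were listed at 0 with IgG. Among the 32 genes that reached 1 FPKM on both sides, 5 were higher and 13 lower, or 15.6% and 40.6%, beside 11.5% and 44.0% of all genes with such values. The shares of the junction lists were thus close to the background.

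Other adherens junction genes had 18 members in the table, 7 of them at least 2-fold higher and 3 lower, beside 39.9% and 29.9% of all genes. PVRL2, which encodes the adhesion molecule nectin-2, had 22.4 FPKM with the IMP1 antibody and 3.13 FPKM with IgG. EZR, the gene of the actin linker ezrin, had 7.40 and 4.04 FPKM. PKP4, a relative of CTNND1, had 4.32 and 20.8 FPKM, and MLLT4, which encodes the nectin-binding protein afadin, had 1.21 and 8.35 FPKM. Nectin-2 and its intracellular partner were on opposite sides as deposited.

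The other classical and related cadherins had low values beside CDH1. Of 13 such genes in the table, CDH3 alone reached 1 FPKM on both sides. CDH19 had 0.947 FPKM with the IMP1 antibody and 0.861 FPKM with IgG, and CDH24 had 0.927 and 2.16 FPKM. The list had 6 genes at least 2-fold higher and 2 lower, beside 39.9% and 29.9% of all genes. Of the 6, 4 were listed at 0 with IgG.

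Of the tight junction membrane genes outside the 10, 17 were in the table. Of these 17, 10 were at least 2-fold higher and 4 lower, beside 39.9% and 29.9% of all genes. Among the 10 higher genes, 7 were listed at 0 with IgG. F11R, which encodes the junctional adhesion molecule JAM-A, had 66.4 FPKM with the IMP1 antibody and 12.7 FPKM with IgG, for a log2 ratio of 2.37 close to that of CLDN3. CLDN1 had 57.1 and 40.8 FPKM, for a log2 ratio of 0.48. CRB3, which encodes an apical polarity protein, had 4.77 and 28.7 FPKM. Of the 8 other claudins in the table, CLDN1 and CLDN12, at 3.47 and 3.81 FPKM, were the only ones that reached 1 FPKM on both sides. CLDN8 was the highest of the rest in the IMP1 library at 0.786 FPKM, 5 of the 8 were listed at 0 with IgG, and CLDN20 was listed at 0 with the IMP1 antibody. Among all claudins of the table, CLDN1, CLDN3 and CLDN7 were the ones above 10 FPKM on both sides.

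Genes for proteins of the tight junction plaque and of cell polarity lay on both sides. Of 27 genes, 11 were at least 2-fold higher and 7 lower as deposited, beside 39.9% and 29.9% of all genes. Among the 11 higher genes, 9 were listed at 0 with IgG. Among the 11 genes that reached 1 FPKM on both sides, 0 were at least 2-fold higher and 6 were lower on the deposited scale, beside 11.5% and 44.0% of all such genes. This limit leaves out every gene listed at 0 with IgG, whatever its IMP1 value, so that nothing about these genes is read from the count. PARD6B, a polarity adaptor, had 7.38 FPKM with the IMP1 antibody and 30.3 FPKM with IgG. TJP3, which encodes the scaffold ZO-3, had 4.44 and 24.8 FPKM. DLG1, a scaffold of the lateral membrane, had 8.75 and 23.6 FPKM, and YBX3, which encodes a ZO-1-associated RNA-binding protein, had 7.53 and 14.6 FPKM.

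Desmosomal genes, 12 in the table, were low in both libraries. PERP had 7.72 FPKM with the IMP1 antibody and 4.92 FPKM with IgG, DSP, the gene of desmoplakin, had 3.06 and 8.28 FPKM, and DSC2, a desmosomal cadherin, had 1.56 and 5.51 FPKM. PKP3, a plakophilin, had 3.81 FPKM and was listed at 0 with IgG, and it was the single desmosomal gene at least 2-fold higher. Of the 12, 4 were lower, and over all genes 39.9% were higher and 29.9% lower. JUP, which serves desmosomes as well as adherens junctions, was above all of them in both libraries.

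**Figure D4:**
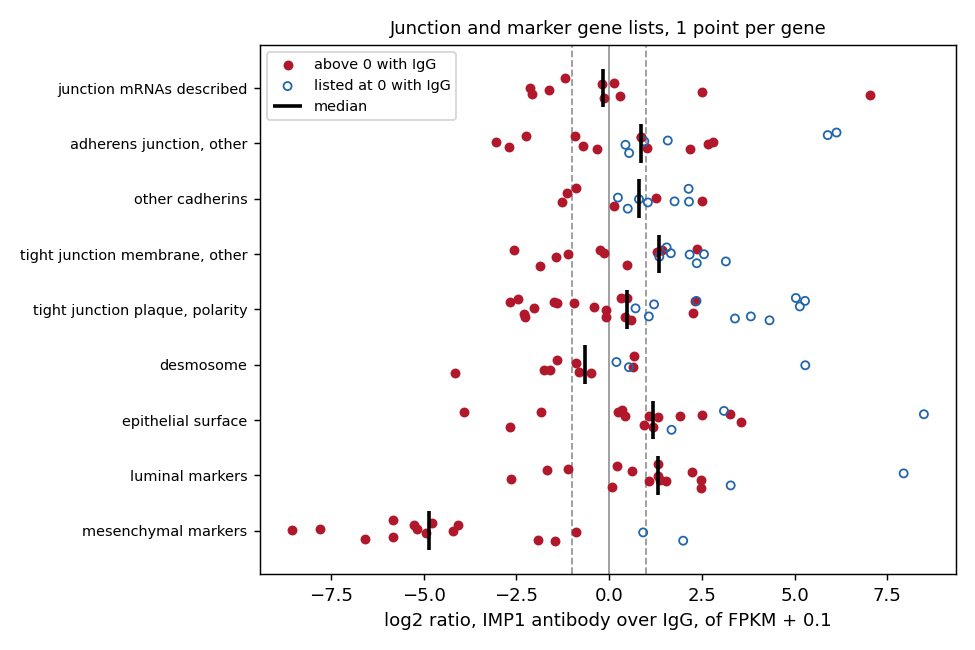
Log2 ratio of FPKM + 0.1, IMP1 antibody over IgG, for each gene of the junction lists and of 3 comparison lists on the scale as deposited, with filled points for genes above 0 with IgG, open points for genes listed at 0 with IgG and a black bar at the median. The junction mRNAs described spread from -2.15 to 7.04, many of the higher points of the other junction lists are listed at 0 with IgG, and mesenchymal markers lie far to the left with a median of -4.86.

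Genes for other surface proteins of epithelial cells also lay on both sides. Of 17 in the table, 10 were at least 2-fold higher and 3 lower as deposited, beside 39.9% and 29.9% of all genes. Of the 11 that reached 1 FPKM on both sides, 5 were higher and 2 lower, beside 11.5% and 44.0%, and no test of the list was made. SPINT2, a protease inhibitor, had 88.4 FPKM with the IMP1 antibody and 23.4 FPKM with IgG, and ST14, the protease it inhibits, had 35.6 and 6.25 FPKM. MUC1, a membrane mucin, had 57.2 and 45.2 FPKM. CD82, a tetraspanin, had 35.7 FPKM and was listed at 0 with IgG. MAL2, a protein of apical transport, had 19.8 and 127 FPKM. The median log2 ratio of this list was 1.18, against -0.16 for the 10 junction mRNAs and 0.40 for all genes.

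Luminal breast markers were present in both libraries, with 15 of 16 at 1 FPKM or more with the IMP1 antibody and 14 with IgG. Their summed level was 1873 FPKM and 777 FPKM, and TFF1 and TFF3 were listed at 0 with IgG. AGR2, a protein of secretory cells, had 595 and 207 FPKM, KRT19 had 371 and 78.8 FPKM, and XBP1 had 345 and 226 FPKM. Mesenchymal markers were mostly higher in the IgG library. Of 16 in the table, 13 were at least 2-fold lower in the IMP1 library and 1 higher, beside 29.9% and 39.9% of all genes. Their summed level was 11.4 FPKM with the IMP1 antibody and 241 FPKM with IgG, and 7 were listed at 0 with the IMP1 antibody. FN1, which encodes fibronectin, had 1.30 and 79.7 FPKM, and DCN, which encodes decorin, was listed at 0 and had 37.5 FPKM with IgG. Blood cell markers, with 5 of 12 in the table, summed to 7.54 and 327 FPKM, of which CD74 made up 6.42 and 305 FPKM. Basal and myoepithelial markers summed to 3.29 and 8.09 FPKM, of which ACTA2 made up 2.36 and 7.79 FPKM. Of 6 in the table, 3 were at least 2-fold higher and 2 lower, beside 39.9% and 29.9% of all genes, and 4 were listed at 0 with IgG. The part of these genes in the lower values of CTNNA1, CTNND1, CLDN7 and OCLN was not tested. Both libraries were made from T47D cells, and the source of the mesenchymal and blood cell marker RNA in the IgG library is not known.

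Broadly expressed genes went both ways as well. Of 13, 3 were at least 2-fold higher and 5 lower, beside 39.9% and 29.9% of all genes. Of the 12 that reached 1 FPKM on both sides, 2 were higher and 5 lower, beside 11.5% and 44.0%. PPIA stood at 1157 FPKM in the IMP1 library and at 649 FPKM in the IgG library. In the same order, the values were 716 and 1634 FPKM for ACTB, and 232 and 2474 FPKM for B2M. CDH1, EPCAM and JUP differed less between the libraries than these 3 genes did, as deposited.

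The genes closest to CDH1 were sought by the distance between their log2(FPKM + 0.1) values over both libraries, which is a likeness over 2 values only. They were MRPL43, NDUFA3, CCNB1, HNRNPD and EFEMP1, at distances from 0.07 to 0.13. LAMB2 was the gene closest to CTNNA1 (0.07), HNRNPU to CTNND1 (0.02), SNRPE to CLDN7 (0.03) and ARRDC3 to OCLN (0.04). CLDN3 had SURF4, ELOVL1, TMED9 and F11R near it, at distances from 0.15 to 0.26. CLDN4 had no gene as near, since the gene closest to it, TIMM17B, was at a distance of 1.31, with 33.8 FPKM with the IMP1 antibody and 0.836 FPKM with IgG. Its IgG value was near the lower end of that library, where few genes of its IMP1 level lie and where a distance depends on the pseudocount.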

How the data were processed

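RNA bound in T47D lysates by an IMP1 antibody or by normal IgG was sequenced in 1 library each. The authors deposited gene-level FPKM for both. The submitters' processing notes name the build hg19. The aligner, the FPKM software, the annotation and the use of strand are not given in the sources used here. A value of 1e-05 was read as 0, and 1 was added to each start because the locus column counts starts from 0. Columns with the authors' fold changes, p-values, q-values and lists of higher and lower genes were not used.

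Ratios were taken between FPKM + 0.1 in both libraries and counted past 2-fold. No test was possible with 1 library per condition, and read depth is unknown. Alternatives changed the pseudocount, the filter on low values, the threshold and the scale of the IMP1 values. The members and the 17 gene lists were chosen with earlier results of these data known. The genes named are the members, the 2 highest of each list in either library, genes at or beside the loci of members, and the 5 genes nearest to CDH1 and to members past 2-fold in the other direction. CLDN8, CLDN12, CLDN20, TFF1, TFF3, ST14, CD82, IQGAP1, APC and the genes nearest to CLDN3 and CLDN4 were named after their values were seen. Promoter windows came from the RefSeq table of build GRCh38.p14. The counting was tested on simulated data. Python 3.11.15, numpy 2.4.6, pandas 2.3.3 and matplotlib 3.10.9 were used.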

Additional observations from a re-analysis of the deposited data

How the results depend on the processing

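No paired analysis was possible because each antibody had a single library, and for that reason no replicate could be left out. The number of junction mRNAs at least 2-fold higher, 2, became 6 after rescaling to the same sum and was 2 or 3 under the other alternatives. The number lower, 4, became 2 with the median gene, 0 with the same sum and 2 at a threshold of 4-fold. It was 3 with broadly expressed genes and with the sum without the 50 highest genes. Their median log2 ratio, -0.16, was above 0 under all 4 rescalings, at 0.32 with broadly expressed genes, 0.41 with the sum without the 50 highest genes, 0.63 with the median gene and 1.71 with the same sum. CLDN7 (0.68) and CTNND1 (0.24) changed sign with the same sum. Of the 87 genes in the 5 junction lists, 35 were higher as deposited, 15 with a pseudocount of 1, 20 with at least 0.5 FPKM in a library, 11 above 0 in both libraries, 59 with the same sum and 23 at 4-fold. The number higher was 42 with broadly expressed genes, 43 with the sum without the 50 highest genes and 47 with the median gene. It was 44 with a pseudocount of 0.01 and 43 at 1.5-fold. The number lower, 20, became 11 with the median gene, 13 with the sum without the 50 highest genes, 3 with the same sum and 10 at 4-fold. Under the other alternatives it lay between 15, with broadly expressed genes, and 26, at 1.5-fold. Among genes above 0 in both libraries, the median log2 ratio of other tight junction membrane genes went from 1.35 as deposited to -0.13. That of epithelial transcription and splicing factors went from 1.43 to -0.93. Both changed sign once the genes listed at 0 in either library were left out. A stricter filter or threshold leaves fewer genes by construction, and a rescaling moves every ratio the same way.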

Other observations

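Genes that act on the E-cadherin complex were looked at beside it, on the scale as deposited. Of 13 epithelial transcription and splicing factors in the table, 7 were higher with the IMP1 antibody by 2-fold or more and 4 lower. Over all genes, 39.9% were higher and 29.9% lower. Among the 7 higher factors, 4 were listed at 0 with IgG. GRHL2, an activator of CDH1 and of claudin genes, had 15.1 FPKM with the IMP1 antibody and 14.6 FPKM with IgG, as level as CDH1 itself. EHF had 17.8 and 2.60 FPKM, and ESRP1, a splicing factor of epithelial cells, had 8.62 and 25.0 FPKM. Among the repressors of E-cadherin transcription, ZEB2 was listed at 0 with the IMP1 antibody and had 21.3 FPKM with IgG, TCF3 had 9.37 and 5.71 FPKM, and KLF8 had 2.28 and 2.23 FPKM. Of the 16 mesenchymal markers, 7 were likewise listed at 0 with the IMP1 antibody, and the part of such RNA in the value of ZEB2 was not tested.

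Genes for endocytosis, turnover and cleavage of E-cadherin, 21 in the table, had 7 at least 2-fold higher and 9 lower. Over all genes, 39.9% were higher and 29.9% lower. RAB11A, which returns E-cadherin to the membrane, had 69.1 FPKM with the IMP1 antibody and 31.7 FPKM with IgG, and ADAM15 had 46.3 and 6.80 FPKM. ARF6 had 30.2 and 41.7 FPKM, MDM2 had 16.8 and 97.4 FPKM, and IQGAP1, which binds E-cadherin and beta-catenin, had 4.49 and 35.4 FPKM. Of 14 genes of the beta-catenin destruction complex and its regulators, 4 were higher and 7 lower, beside the same 39.9% and 29.9%. CSNK1A1, a kinase that phosphorylates beta-catenin, had 26.4 and 73.3 FPKM, FBXW11 had 4.71 and 44.4 FPKM, APC had 1.92 and 21.8 FPKM, and GSK3B had 10.5 and 5.87 FPKM. Transcription partners of beta-catenin and Wnt targets had 7 of 21 higher and 4 lower, beside 39.9% and 29.9% of all genes. TLE3, a corepressor, had 15.1 and 14.4 FPKM, and BCL9L, a coactivator, had 14.1 and 22.0 FPKM. Of the endothelial markers, ENG had 1.19 FPKM and was listed at 0 with IgG, and ROBO4 was listed at 0 and had 1.18 FPKM.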
